A study of Mus musculus with 10 samples.

Results

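Enzymes of the Ugt, Sult and Gst families attach a sugar acid, a sulfate or glutathione to hormones, bile pigments, bile acids, drugs and reactive metabolites, and most of this work is done by hepatocytes. The 37 genes described here were taken from the 12366 genes measured on mouse liver arrays by their symbols, which begin with Ugt (11 genes), Sult (8 genes) or Gst (18 genes). Symbols had to stand alone on a probe set, each gene was read from its brightest probe set across all 10 arrays, and 1 gene of the Gst group was left out by the rule. The rule itself used no measured difference, but it was chosen with earlier results of these data known. Membership follows the symbol, so a gene such as Gstcd, named for a transferase-like domain, is counted with the enzymes.

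The livers came from 5 control mice and from 5 mice homozygous for a floxed Dicer allele that also carried Afp-Cre, all aged 28 days and of mixed strain, fasted for 5 hours. Dicer is the nuclease that cuts microRNA precursors into mature microRNAs, and Afp-Cre uses the regulatory sequence of alpha-fetoprotein, a gene of fetal hepatocyte precursors, so recombination begins before birth in that lineage. The labels do not say which alleles the controls carried, and they give no sex or litter. Total RNA was biotin-labelled and hybridised to Affymetrix mouse expression arrays, 1 array for each liver, so every p-value rests on the spread among these 10 livers.

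In glucuronidation, a Ugt enzyme moves glucuronic acid from UDP-glucuronic acid onto its substrate, while Ugt3a and Ugt8a enzymes use other UDP-sugars. Cytosolic sulfotransferases of the Sult family take sulfate from the donor PAPS, and glutathione transferases of the Gst family join the thiol of glutathione to electrophiles. In mouse liver the nuclear receptors and the factors AHR and NRF2 are known to induce many of these genes, and several Sult and Ugt genes are known for strong sex differences.

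On both probe sets Dicer1 was lower in all 5 mutants, by 2.31 and 1.03 on the log2 scale. Array medians lay between 6.41 and 6.68, and array pairs correlated between 0.970 and 0.993 over all probe sets. None of 4 hepatocyte markers (Alb, Apoa1, Ttr and Cps1) passed the test, with 1 of 4 at an unadjusted p under 0.05 by limma and differences from -0.09 to 0.09 (Apoa1, at -0.09, did not overlap between groups), whereas 4 of 6 Kupffer cell and 3 of 5 stellate cell markers were higher. Of 5 endothelial markers Lyve1 fell by 0.95 (adjusted p = 0.0175 by limma) and without overlap, and all 5 differences were below 0. Ptprc, a marker of leukocytes in general, was higher by 0.75 (adjusted p = 0.0411 by limma). Slc4a1 of red cells differed by -0.44 and did not pass. Over all 12366 genes, 8.62% passed as higher and 11.5% as lower, and 13.2% showed no overlap between groups. Without adjustment, 34.9% of all genes reached the 0.05 threshold, so 1 of 4 hepatocyte markers does not stand out. The mean signal of the Kupffer list ran from 10.05 to 10.85 in controls and from 10.9 to 11.3 in mutants, and that of the stellate list from 9.29 to 9.65 and from 9.88 to 10.3. That of the endothelial list ran from 9.34 to 9.73 in controls and from 9.04 to 9.32 in mutants. The mean of 6 cholangiocyte and progenitor markers ran from 3.97 to 4.50 in controls and from 4.87 to 5.74 in mutants. Among these, Prom1 alone passed the test, and Krt19, Krt7 and Cftr had control means below 3.60, the 25th percentile of all values. In whole liver a smaller number of expressing cells and less RNA per cell cannot be told apart, and the part of these shifts in the results was not tested.

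Of the 37 conjugating enzyme genes, 4 were higher in mutants, 9 were lower and 24 did not pass the test (limma, Benjamini-Hochberg adjusted over all genes, adjusted p under 0.05). Of 11 Ugt genes 5 were called lower and 0 higher, while 2 of the others, Ugt2b34 and Ugt2b35, had differences above 0. Gst genes were split, with 3 of 18 higher and 3 lower, and Sult genes had 1 of 8 higher and 1 lower. The share called, 35.1% of the members, stands beside 20.1% of all genes tested, of which 8.62% were higher and 11.5% lower. Median differences, mutant minus control on the log2 scale, were -0.28 for Ugt, -0.33 for Sult and -0.04 for Gst, against -0.01 over all genes. Control and mutant arrays did not overlap for 6 members, 2 higher and 4 lower, where 13.2% of all genes did not overlap. At an unadjusted p under 0.05 the members numbered 17, beside 34.9% of all genes. The number of members called was 12 under quantile normalization (21.7% of all genes) and 10 after subtraction of array medians (21.5%). With averaged probe sets it was 12 (18.1%). Without dim genes 12 of the 31 members tested were called, beside 35.6% of the 6183 genes tested. The number called was 13 with a trended, robust variance (19.1%), 15 with array weights (26.9%) and 10 with the Y-linked covariate (18.6%). Leaving out control arrays 1 to 5 in turn gave 7 (14.0%), 6 (14.5%), 6 (12.1%), 5 (12.9%) and 5 members (14.2%), and leaving out mutant arrays 1 to 4 gave 6 (12.8%), 5 (12.3%), 6 (13.9%) and 3 (11.2%), so both counts shrank together. Most members are bright on these arrays: 31 of 37 reached a mean of 7.63, which is the median gene, and Ugt8a alone had a mean below 3.60.

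**Figure D1:**
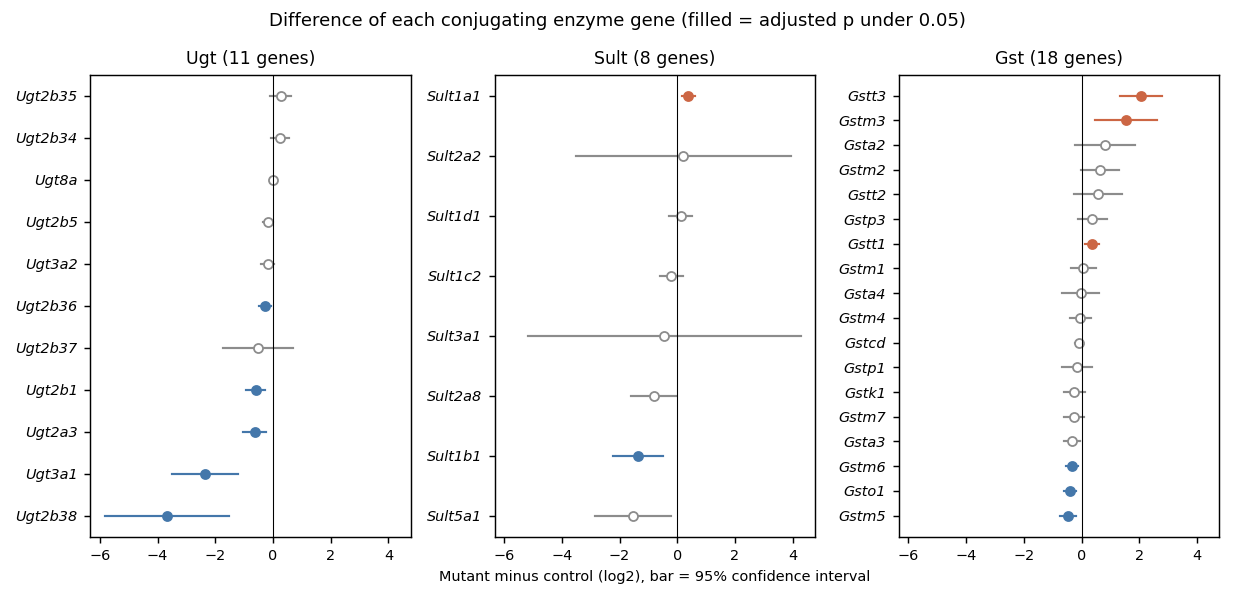
Difference between mutant and control liver (log2, horizontal axis) for each of the 11 Ugt, 8 Sult and 18 Gst genes, with the 95% confidence interval as a bar and filled points for an adjusted p under 0.05. Filled Ugt points all lie below 0, down to -3.68 for Ugt2b38, while the Gst panel runs from -0.47 for Gstm5 to 2.06 for Gstt3, and the widest intervals belong to Sult2a2 and Sult3a1.

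Among the Ugt genes, Ugt3a1 had a large and stable decrease. UGT3A1 is an N-acetylglucosaminyltransferase that acts on bile acids and other steroids. The 5 controls read 9.68, 9.36, 8.80, 9.37 and 9.27, and the 5 mutants read 6.46, 5.20, 7.74, 6.94 and 8.29 (arrays here and below in the order of replicates 1 to 5, and means ± SD with n = 5). Every mutant lay below every control, and the mutants were spread more widely. Ugt3a1 had a control mean of 9.30 ± 0.32 and a mutant mean of 6.93 ± 1.19, so that it fell by 2.37 on the log2 scale (SE 0.51, adjusted p = 0.0151 by limma). If the base of the deposited log values is 2, as their range implies, this is 5.17-fold on a linear scale. Its other probe set differed by -2.70, also with no overlap. In the 10 fits that each left out 1 array, Ugt3a1 stayed past the threshold, with differences from -2.71 to -1.94.

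Ugt3a2, the gene next to Ugt3a1 in the reference gene order, encodes a relative that prefers other UDP-sugars, and it did not pass the test. It had a control mean of 13.23 ± 0.13 and a mutant mean of 13.04 ± 0.19, a difference of -0.19 with a 95% interval from -0.42 to 0.03 (adjusted p = 0.207 by limma). The interval of Ugt3a1, from -3.51 to -1.23, lies wholly below it. The difference between the 2 genes was not tested itself.

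The promoter windows of Ugt3a1 and of a pair of Ugt2b genes, described next, are shown because these genes fell by such different amounts. Each runs from 250 bases before to 50 bases after the RefSeq transcript start, on GRCm38.p6, written 5′ to 3′ on the strand of the gene. In Ugt3a1 (chr15:9279579-9279878, plus strand) the capitals mark a match, read on the reverse strand, to a binding motif of the hepatocyte factor HNF1 (GTTAAT, any 2 bases, TTAAC), and in Ugt2b38 (chr5:87424154-87424453, minus strand) and Ugt2b36 (chr5:87092506-87092805, minus strand) they mark AGGTCA, the core motif of nuclear receptors.
Ugt3a1: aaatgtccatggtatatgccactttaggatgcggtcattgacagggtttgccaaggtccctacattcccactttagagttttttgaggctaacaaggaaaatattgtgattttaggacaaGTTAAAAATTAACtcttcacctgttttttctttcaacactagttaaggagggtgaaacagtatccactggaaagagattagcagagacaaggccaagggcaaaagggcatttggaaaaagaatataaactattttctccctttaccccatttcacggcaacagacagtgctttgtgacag
Ugt2b38: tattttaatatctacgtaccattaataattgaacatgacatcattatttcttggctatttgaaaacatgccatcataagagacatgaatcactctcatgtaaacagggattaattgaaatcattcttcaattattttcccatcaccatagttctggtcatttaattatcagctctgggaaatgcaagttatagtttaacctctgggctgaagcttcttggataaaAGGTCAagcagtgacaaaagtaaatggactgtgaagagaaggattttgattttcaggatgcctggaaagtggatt
Ugt2b36: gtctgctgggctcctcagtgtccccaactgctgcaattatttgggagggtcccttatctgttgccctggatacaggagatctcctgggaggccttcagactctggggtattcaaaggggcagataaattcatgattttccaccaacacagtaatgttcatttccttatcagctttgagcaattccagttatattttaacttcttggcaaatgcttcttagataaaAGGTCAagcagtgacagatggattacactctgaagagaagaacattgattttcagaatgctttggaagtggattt

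The HNF1 match in the Ugt3a1 window has its first base at position -130 from the start, and 0.0396% of the 32851 promoter windows in the table hold this motif on either strand. It overlaps the shorter GTTAAT, which 7.10% of windows hold and which was also found in the windows of Ugt2a3, Gsta3, Sult1a1 and Sult1d1. In the Ugt2b38 and Ugt2b36 windows AGGTCA has its first base at the same position, -25. Of the 33 members with a window, 9 hold the motif in at least one, the others being Ugt2b5, Ugt2b35, Ugt2b37, Sult1b1, Sult2a8, Gstk1 and Gstm1. Over all windows the share is 16.3%. Members such as Sult1b1 and Sult2a8 have multiple windows, so the count of members and the share of windows are not in the same unit. A match describes letters in these windows and is not a measured binding site.

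Ugt2b38 had the lowest difference of all members. Enzymes of the UGT2B group glucuronidate steroid hormones, bile acids and many drugs. Controls read 5.80, 2.69, 7.41, 7.98 and 7.70, and mutants read 2.30, 2.31, 2.28, 2.29 and 4.03. On 4 mutant arrays and on control replicate 2 the signal lay below 3.60, near the bottom of the scale, so the groups overlapped and the size of the difference depends on how the authors treated background. The control mean was 6.32 ± 2.20 and the mutant mean 2.64 ± 0.77, and Ugt2b38 fell by 3.68 (SE 0.96, adjusted p = 0.0283 by limma). Leaving out any of control replicates 3 to 5 or of mutant replicates 1 to 4 ended the call (adjusted p between 0.0581 and 0.0651). Over all 10 fits without 1 array the difference ran from -4.58 to -3.26.

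Ugt2b1, Ugt2a3 and Ugt2b36 fell less. For Ugt2b1 the controls read 13.87, 13.80, 13.88, 13.97 and 14.10, and the mutants 13.55, 12.95, 13.43, 13.01 and 13.68. All mutants lay below all controls, and Ugt2b1 fell by 0.60 (SE 0.15, adjusted p = 0.0221 by limma), a call lost only without mutant replicate 4 (adjusted p = 0.0502). Ugt2a3, an enzyme known to glucuronidate bile acids, read 12.94, 12.77, 12.69, 12.77 and 12.39 in controls and 12.03, 11.66, 12.21, 11.81 and 12.66 in mutants. Here mutant replicate 5 lay within the control range and the other 4 mutants below it. Ugt2a3 fell by 0.64 (SE 0.18, adjusted p = 0.0377), a call that 8 of the 10 fits without 1 array ended (adjusted p between 0.0596 and 0.0868). The fits without replicate 5 of either group kept it. It was also lost with the Y-linked signal of each array as a covariate. Ugt2b36 read 14.01, 13.94, 13.84, 14.16 and 13.95 in controls and 13.83, 13.67, 13.62, 13.49 and 13.87 in mutants, where replicate 5 alone reached the control range. Ugt2b36 had a control mean of 13.98 ± 0.12 and a mutant mean of 13.70 ± 0.16. It fell by 0.28 (SE 0.09, adjusted p = 0.0468) and passed in 1 of the 10 fits without 1 array, that without mutant replicate 5 (adjusted p from 0.0534 to 0.0992 in the others). Its call was also lost under quantile normalization, after subtraction of array medians and with the Y-linked covariate.

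The 6 Ugt genes that did not pass the test had small or imprecise differences. Ugt2b5, a UGT2B enzyme, read 14.16, 14.23, 14.19, 14.54 and 14.27 in controls and 14.17, 14.11, 14.02, 14.08 and 14.10 in mutants, where replicate 1 alone lay in the control range. Ugt2b5 had a control mean of 14.28 ± 0.15 and a mutant mean of 14.10 ± 0.05, a difference of -0.18 with a 95% interval from -0.34 to -0.01 (adjusted p = 0.118). The remaining 5, which were Ugt2b34, Ugt2b35, Ugt2b37, Ugt3a2 and the ceramide galactosyltransferase Ugt8a, differed by -0.52 to 0.26. Ugt2b34 had a second probe set that differed by 0.35 (adjusted p = 0.0443 over all probe sets, of which 13.2% were called), against 0.25 on the one used. Ugt8a stood between 2.59 and 2.66 on the 10 arrays, so no change could be seen there.

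Ugt1a genes, which share their last exons and include the bilirubin enzyme Ugt1a1, are absent from the 37 because their probe sets name 8 genes at once. All 3 shared probe sets were bright and differed by 0.18, 0.08 and 0.07 (adjusted p = 0.284, 0.540 and 0.452 over all probe sets). The brightest had a control mean of 14.88 ± 0.09 and a mutant mean of 14.96 ± 0.14. A shift of 1 of these genes against another cannot be read from a shared probe set.

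**Figure D2:**
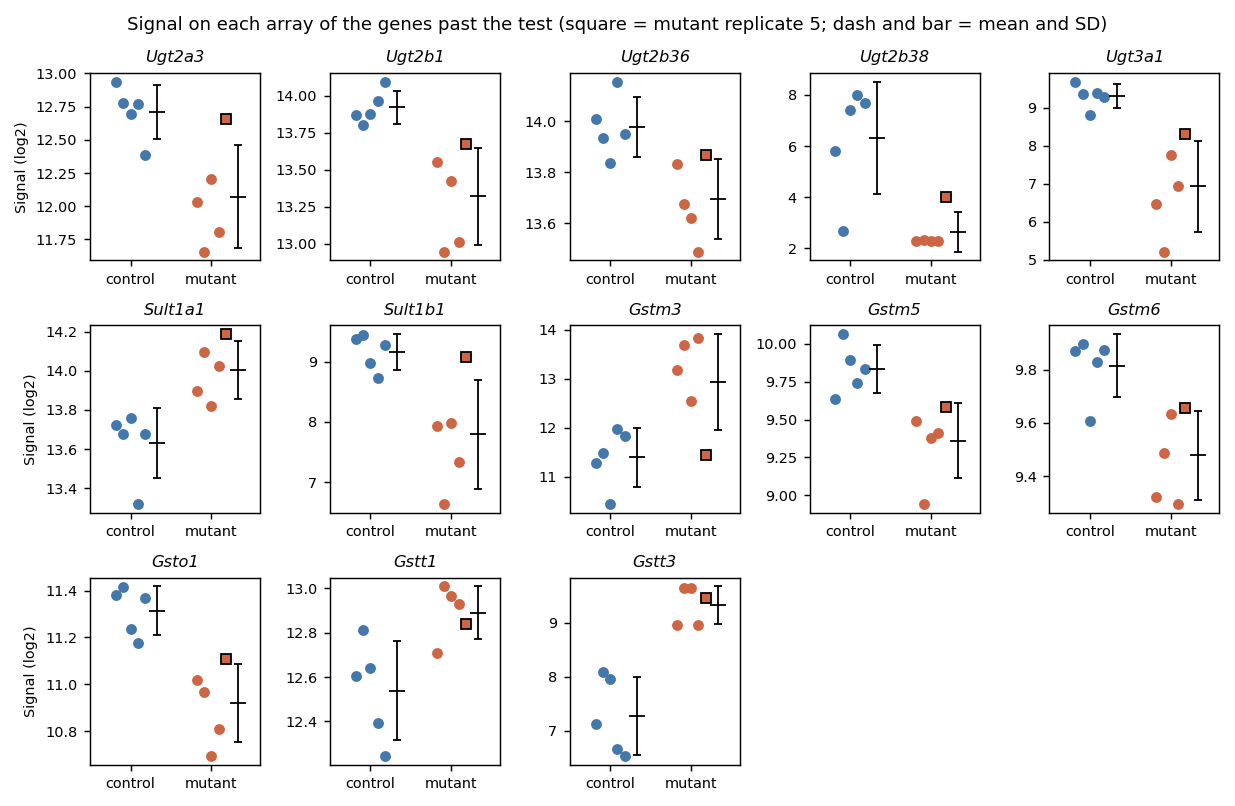
Log2 signal on each array for the 13 genes past the test, control in blue and mutant in orange, with mutant replicate 5 as a square and the mean and SD at the right of each group; each panel has its own vertical axis. The groups stand apart for Ugt2b1, Ugt3a1, Sult1a1, Gstm5, Gsto1 and Gstt3, and the square lies among the controls for Ugt2a3, Ugt2b36, Sult1b1, Gstm3, Gstm6 and, with control replicate 2 below it, Ugt2b38.

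Of the sulfotransferases, Sult1b1 fell and Sult1a1 rose. SULT1B1 sulfates thyroid hormones and small phenols. Its controls read 9.37, 9.43, 8.97, 8.73 and 9.28, and its mutants 7.93, 6.64, 7.99, 7.34 and 9.08. Mutants 1 to 4 lay below all controls and mutant replicate 5 among them. Sult1b1 had a control mean of 9.16 ± 0.30 and a mutant mean of 7.79 ± 0.90, and fell by 1.36 (SE 0.39, adjusted p = 0.0382 by limma). Of the fits without 1 array only that without mutant replicate 5 kept the call, with a difference of -1.68 (adjusted p = 0.00352, and 0.0555 to 0.0878 in the others), and it was lost with the Y-linked covariate.

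SULT1A1, a sulfotransferase for phenols and phenolic drugs, was the member of its family with a modest increase in every mutant. Controls read 13.72, 13.68, 13.76, 13.32 and 13.68 and mutants 13.89, 14.10, 13.82, 14.03 and 14.19, with no overlap. Sult1a1 rose by 0.37 (SE 0.10, adjusted p = 0.0312 by limma), from a mean of 13.63 ± 0.18 to 14.00 ± 0.15. Leaving out control 2, control 5, mutant 2 or mutant 4 ended the call (adjusted p between 0.0536 and 0.0692).

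Sult5a1 and Sult2a8 had larger mean differences than Sult1a1 but did not pass the test. For Sult5a1 the controls read 6.62, 7.66, 8.03, 7.22 and 7.63 and the mutants 5.60, 4.61, 6.79, 4.79 and 7.68. Mutants 1, 2 and 4 lay below the controls and replicates 3 and 5 within their range, for a difference of -1.53 (SE 0.59, adjusted p = 0.0942). Sult2a8, the main hepatic sulfotransferase for bile acids in mice, read 13.40, 13.86, 13.68, 13.43 and 13.53 in controls and 13.00, 11.79, 13.40, 12.02 and 13.60 in mutants. Its difference was -0.82 (SE 0.35, adjusted p = 0.125), with mutants 2 and 4 at the bottom. Without mutant replicate 5 both genes passed, at -1.98 (adjusted p = 0.0140) and -1.03 (adjusted p = 0.0423).

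Sult1d1, a sulfotransferase for catecholamines and related phenols, read 13.18, 12.68, 12.88, 12.41 and 12.52 in controls and 12.34, 13.01, 12.84, 13.07 and 13.02 in mutants, and the groups overlapped. Sult1d1 differed by 0.12 with a 95% interval from -0.28 to 0.52 (adjusted p = 0.699), and its other probe set by 0.07. Sult1c2 differed by -0.20 (adjusted p = 0.459). The last pair of the family, the steroid sulfotransferase Sult2a2 and the amine sulfotransferase Sult3a1, differed by 0.21 and -0.45 with 95% intervals from -3.53 to 3.94 and from -5.18 to 4.27. These are the widest intervals of all members, and both groups were spread over many log2 units.

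Signal from the X and Y chromosomes ran along with that spread. The labels give no sex, but the mean of 6 probe sets for Ddx3y, Eif2s3y, Kdm5d and Uty lay between 6.10 and 6.27 on 6 arrays (3 controls and 3 mutants) and between 3.08 and 3.40 on the other 4, where the mean of 3 Xist probe sets lay between 10.9 and 11.2. Control replicate 4 and mutant replicate 3, among the 6 arrays with Y-linked signal, carried Xist signal too, at 5.23 and 5.42 against 2.30 to 3.06 on the other 4. Sult2a2 read 14.09 and 12.84 in controls without Y-linked signal and 12.11 and 14.30 in such mutants. On arrays with Y-linked signal it read 7.49, 8.13 and 10.45 in controls and 10.14, 10.94 and 6.53 in mutants. All 4 values of the first kind exceeded all 6 of the second, whatever the genotype.

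Sult3a1 showed the same order. Without Y-linked signal it read 12.07 and 9.54 in controls and 7.30 and 12.22 in mutants, and with it 3.39, 4.29 and 5.61 in controls and 4.66, 5.57 and 2.90 in mutants. Mutant replicate 2, at 7.30, was the lowest of the 4 high arrays. These 2 genes were picked out after their values were seen. They were the only members of the 37 for which arrays with and without Y-linked signal did not overlap. Over all genes the share without such overlap was 1.46%. Gstp1, known for higher levels in male mouse liver, read 14.45 and 14.13 in controls without Y-linked signal and 15.16, 14.99 and 14.63 in controls with it. In mutants both kinds overlapped, at 14.76 and 13.87 against 14.67, 14.44 and 14.81.

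**Figure D3:**
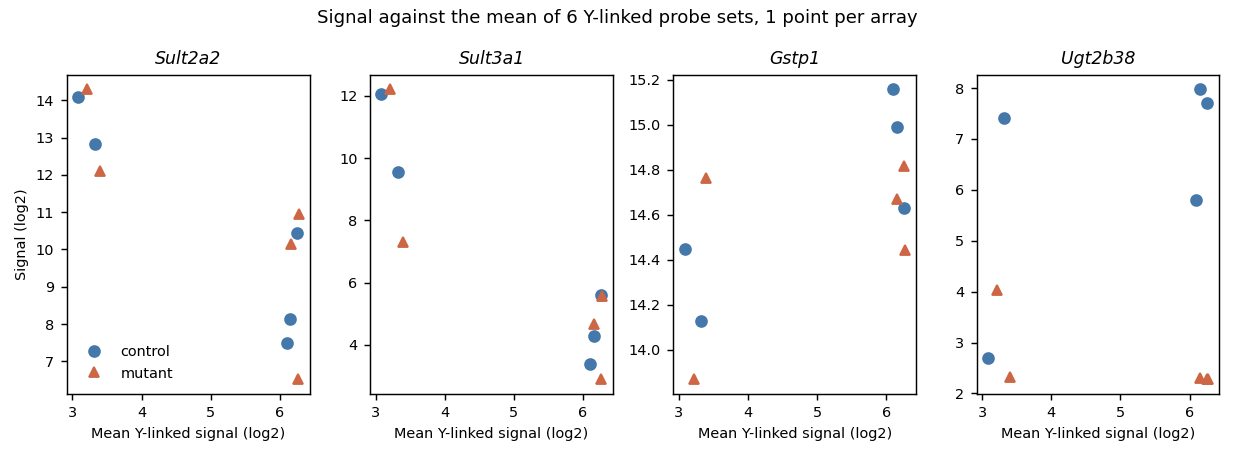
Log2 signal of Sult2a2, Sult3a1, Gstp1 and Ugt2b38 (vertical axes, 1 per gene) against the mean log2 signal of 6 Y-linked probe sets, 1 point per array, controls as circles and mutants as triangles. The 4 arrays near 3 on the horizontal axis hold the highest Sult2a2 and Sult3a1 values in both genotypes, whereas for Ugt2b38 most mutants sit near 2.3 at either end.

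The mutant differences of the 13 called members pointed the same way in both kinds of array. These members were called on both kinds together, so the shared direction was partly fixed in advance and is not separate evidence. Within the 6 arrays with Y-linked signal, Ugt3a1, Ugt2b38, Sult1b1 and Gstt3 passed the test (adjusted p = 0.0174, 0.0140, 0.0293 and 0.0118 by limma), where 13.0% of all genes were called. Within the other 4 arrays 0 members and 0 genes passed by limma, with 2 members and 751 genes at an unadjusted p under 0.05. The difference between both kinds of array was tested as an interaction, and 0 members and 0 genes passed, with 1 member, Gstt3, and 301 genes (2.43%) at an unadjusted p under 0.05. Gstt3 differed by 2.41 on arrays with Y-linked signal and by 1.53 on the others.

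Of 3 glutathione transferase genes of the theta class, 2 were higher. GSTT enzymes handle small halogenated compounds and hydroperoxides. Gstt3 read 7.14, 8.08, 7.95, 6.66 and 6.53 in controls and 8.96, 9.64, 9.64, 8.97 and 9.45 in mutants. Every mutant, replicate 5 included, exceeded every control. Gstt3 had a control mean of 7.27 ± 0.72 and a mutant mean of 9.33 ± 0.35 and rose by 2.06 (SE 0.33, adjusted p = 0.00733 by limma), or 4.16-fold if the log base is 2. It passed in all 10 fits without 1 array, with differences from 1.87 to 2.26.

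Gstt1, the neighbour of Gstt3, rose by 0.35 (SE 0.11, adjusted p = 0.0481 by limma). Its controls read 12.60, 12.81, 12.64, 12.39 and 12.24 and its mutants 12.71, 13.01, 12.97, 12.93 and 12.84, so that only mutant replicate 1 lay within the control range. Only the fit without control 2 kept the call (adjusted p between 0.0523 and 0.104 in the other 9), and it was lost after subtraction of array medians and when all probe sets of each gene were averaged. Gstt2 had a control mean of 10.57 ± 0.55 and a mutant mean of 11.12 ± 0.72, a difference of 0.56 that did not pass (adjusted p = 0.329).

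The 7 genes of the mu class, which conjugate epoxides and quinones and lie side by side in the genome, had 1 call higher and 2 lower. Gstm3 read 11.27, 11.49, 10.44, 11.98 and 11.82 in controls and 13.17, 13.69, 12.54, 13.84 and 11.45 in mutants. Mutants 1 to 4 stood above all controls, and mutant replicate 5 stood near the control mean of 11.40. Gstm3 rose by 1.54 (SE 0.47, adjusted p = 0.0476 by limma), while its other probe set differed by 1.74 and did not pass over all probe sets (adjusted p = 0.0571, and 0.0632 there for the probe set used). Without mutant replicate 5 the difference was 1.91 (adjusted p = 0.00569), and without any other array the call was lost (adjusted p from 0.0627 to 0.105).

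Gstm5 and Gstm6, on one side of Gstm3 in the gene order, fell. Gstm5 read 9.64, 10.07, 9.89, 9.74 and 9.84 in controls and 9.49, 8.94, 9.38, 9.41 and 9.58 in mutants, without overlap. It fell by 0.47 (SE 0.13, adjusted p = 0.0295 by limma), and leaving out any of control replicates 2 to 5 or mutant replicates 3 and 4 ended the call (adjusted p up to 0.0645). Gstm6 read 9.87, 9.90, 9.61, 9.83 and 9.87 in controls and 9.32, 9.49, 9.63, 9.29 and 9.66 in mutants, where replicates 3 and 5 passed the lowest control. Gstm6 had a control mean of 9.82 ± 0.12 and a mutant mean of 9.48 ± 0.17 and fell by 0.34 (SE 0.09, adjusted p = 0.0312). In 7 of the 10 fits without 1 array the call was lost (adjusted p between 0.0613 and 0.0694), and those without control 3, mutant 3 or mutant 5 kept it. It was also lost after subtraction of array medians.

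On the other side of Gstm3, Gstm2 differed by 0.63 with a 95% interval from -0.02 to 1.28 (adjusted p = 0.155), Gstm1 by 0.05 (from -0.38 to 0.48) and Gstm4 by -0.05. Gstm1 read 13.99, 13.86, 13.50, 14.13 and 14.11 in controls and 13.70, 14.42, 13.77, 14.35 and 13.61 in mutants, and 2 further Gstm1 probe sets differed by 0.05 and 0.12. Another Gstm1 probe set, with a difference of 0.07, lay below 3.60 on all 10 arrays and gives no reading of a change. Gstm7 differed by -0.26 (adjusted p = 0.259), and its other probe set lay below 3.60 on all 10 arrays. Mu class genes are close in sequence, so a probe set can bind transcripts of its relatives, and the identity of single Gstm signals is uncertain. The same holds for the Ugt2b, Gsta, Gstp and Sult2a genes.

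**Figure D4:**
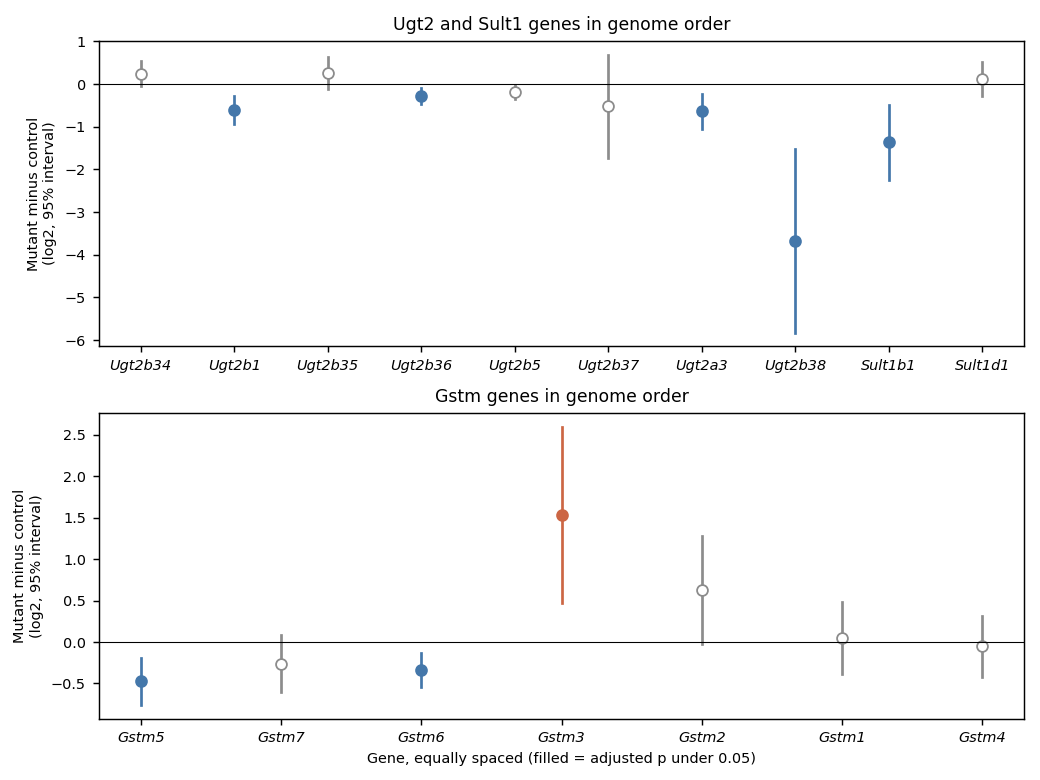
Difference between mutant and control (log2, with 95% confidence intervals) for Ugt2, Sult1 and Gstm genes placed in reference gene order at equal spacing, filled where the adjusted p was under 0.05. Ugt2a1 and Ugt2a2, which lie between Ugt2b38 and Sult1b1, are not shown because they share a probe set; the lowest points, -3.68 and -1.36, are these flanking genes, and in the lower panel Gstm3 at 1.54 lies beside Gstm6 at -0.34.

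In the Ugt2 row of the genome the differences varied as much between neighbours. Ugt2b1 fell between Ugt2b34 and Ugt2b35, which differed by 0.25 and 0.26 and did not pass. At the other end Ugt2a3, Ugt2b38 and, beyond Ugt2a1 and Ugt2a2, Sult1b1 fell, and the next gene, Sult1d1, did not pass. The shared probe set of Ugt2a1 and Ugt2a2 lay between 2.75 and 3.04 on all arrays.

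Gsto1, of the omega class, which reduces dehydroascorbate and mixed disulfides, fell by a small and stable amount. The controls read 11.38, 11.41, 11.24, 11.17 and 11.37 and the mutants 11.02, 10.97, 10.69, 10.81 and 11.11. All mutants lay below all controls. The decrease was 0.40 (SE 0.09, adjusted p = 0.0163 by limma) on this probe set, with -0.71 and again no overlap on a second one. Gsto1 passed in all 10 fits without 1 array, with differences from -0.44 to -0.34.

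Genes of the alpha and pi classes did not pass the test. Gsta3, the bright alpha class enzyme that detoxifies aflatoxin epoxide in mice, read 15.48, 15.39, 15.17, 15.23 and 15.05 in controls and 14.98, 14.88, 15.01, 14.60 and 15.24 in mutants. Mutants 1 to 4 lay below the controls by a little and replicate 5 among them, for a difference of -0.32 (SE 0.12, adjusted p = 0.0960), or -0.39 without mutant replicate 5 (adjusted p = 0.0322). Gsta2 read 8.40, 7.99, 6.56, 8.85 and 8.15 in controls and 8.37, 10.05, 8.35, 8.91 and 8.37 in mutants. It differed by 0.82 with a 95% interval from -0.23 to 1.86 (adjusted p = 0.250), and the probe set it shares with Gsta1 and Gm3776 by 1.01. The highest Gsta2 value, 10.05, came from mutant replicate 2 and the lowest, 6.56, from control replicate 3. Gstp1 differed by -0.16 (from -0.69 to 0.37, adjusted p = 0.694) and Gstp3 by 0.37 (adjusted p = 0.284). The remaining Gst members Gsta4, which acts on the lipid aldehyde hydroxynonenal, Gstk1 and Gstcd differed by -0.03, -0.25 and -0.08 and did not pass.

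Mutant replicate 5 changed least for most of the 13 called members. It was the mutant nearest to the control mean for 10 of them and lay within the control range for 6. Its change from the control mean had a median share of 0.418 of the change of the other 4 mutants, from 0.0243 for Gstm3 and 0.0454 for Sult1b1 to 1.07 for Gstt3 and 1.70 for Sult1a1. Without this array 17 members were called, 5 higher and 12 lower, where 28.6% of all genes were. The 5 added were Gsta3, Sult2a8, Sult5a1, Ugt2b34 at 0.36 (adjusted p = 0.0306) and Gstm2 at 0.81, just under the threshold, and Gstt1 was lost.

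Genes that work with the conjugating enzymes were described by list, with 20.1% of all genes called (8.62% higher and 11.5% lower) as the background. The share called was 6.67% for donor supply, 40.0% for export, 15.4% for regulators and 6.25% for inducible targets. The supply of donors was measured by 15 genes, of which 0 rose and 1 fell, with a median difference of -0.08. That gene, Gclc, encodes the catalytic subunit of the enzyme that starts glutathione synthesis. It read 12.86, 13.20, 12.91, 13.19 and 13.28 in controls and 12.31, 12.49, 12.11, 12.22 and 12.73 in mutants, without overlap. Gclc fell by 0.71 (SE 0.13, adjusted p = 0.00988 by limma), while its regulatory partner Gclm differed by 0.17 (adjusted p = 0.417). Ugdh, which makes UDP-glucuronic acid, and the PAPS synthases Papss1 and Papss2 differed by 0.34, -0.56 and 0.49 and did not pass (adjusted p = 0.510, 0.128 and 0.0870).

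Of 5 transporters that export conjugates, 1 rose and 1 fell. Abcc2, which pumps conjugates into bile, read 11.79, 11.17, 11.12, 11.69 and 11.26 in controls and 12.16, 12.38, 12.14, 12.09 and 11.55 in mutants, and rose by 0.66 (SE 0.18, adjusted p = 0.0349 by limma). Abcc3, which pumps them back into blood, read 10.63, 10.61, 10.24, 10.89 and 11.20 in controls and 8.55, 9.49, 8.22, 10.15 and 9.92 in mutants, and fell by 1.45 (SE 0.38, adjusted p = 0.0286). Mutant replicate 5 alone lay within the control range for Abcc2, and for Abcc3 no mutant did. Of these 2 calls, the fit without mutant replicate 5 kept both. The fits without control 2, control 5, mutant 1 or mutant 2 kept 0, and each other fit without 1 array kept 1.

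Among 13 measured regulators 2 rose and 0 fell, with a median difference of 0.07. Nfe2l2, which encodes NRF2, had a control mean of 10.83 ± 0.20 and a mutant mean of 11.38 ± 0.18, a rise of 0.55 (SE 0.11, adjusted p = 0.0142 by limma). Ahr had a control mean of 10.91 ± 0.27 and a mutant mean of 11.52 ± 0.17, a rise of 0.60 (SE 0.14, adjusted p = 0.0179). Groups did not overlap for either gene. The receptor genes Nr1i3, Nr1i2 and Ppara and the factor gene Hnf4a differed by -0.03, 0.37, 0.09 and 0.18 and did not pass. Of 16 inducible targets of these regulators only Gclc, which is also counted above, passed, and it fell. The list median was 0.20, with 13 of 16 differences above 0, beside 5590 of all 12366 genes. These 13 include Cbr3, below 3.60 on all 10 arrays, and Cyp1b1, below it on 5 control and 4 mutant arrays. For both, the sign gives no reading of a change. An unadjusted p under 0.05 by limma was reached by 5 genes of the list, beside 34.9% of all genes. Besides Gclc these were Hmox1, Cyp2c55, Alas1 and Osgin1, with differences of 1.95, 2.07, 1.18 and 0.98 (adjusted p = 0.0703, 0.114, 0.0810 and 0.125 by limma). The NRF2 target Nqo1 differed by 0.15 (adjusted p = 0.781). The AHR target Cyp1a1 lay below 3.60 on all 10 arrays and gives no reading of a change.

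No gene passed among 4 further genes of glutathione and leukotriene metabolism or 4 enzymes that cleave or process conjugates (limma). The same held for 12 enzymes of methylation, acylation and tyrosine sulfation. At an unadjusted p under 0.05 by limma these lists held 1, 1 and 2 genes, beside 34.9% of all genes. Their median differences were -0.02, -0.20 and -0.18. In the first list Alox5ap was higher by 0.99 without overlap (adjusted p = 0.0593 by limma), and the other 3 differences were below 0. The microsomal glutathione transferase Mgst1 had a control mean of 15.42 ± 0.10 and a mutant mean of 15.39 ± 0.10.

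**Figure D5:**
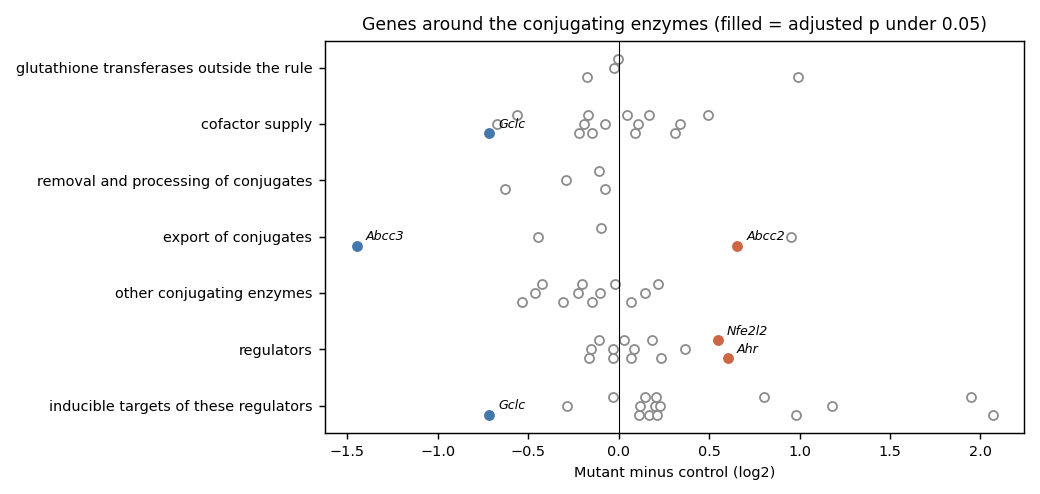
Difference between mutant and control (log2) for each measured gene of 7 lists of related genes, 1 point per gene, filled and named where the adjusted p was under 0.05; Gclc belongs to 2 lists. The filled points include Abcc3 at -1.45 and Gclc at -0.71 on the lower side and Nfe2l2, Ahr and Abcc2 between 0.55 and 0.66 on the higher side.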

How the data were processed

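The deposited values are on a log2 scale, 1 for each probe set and array. The log base was read from their range of 0.27 to 16.7. The steps by which the authors corrected background, summarised probes and normalized: not given in the sources used here. Of 25995 probe sets, 37 control ones were left out; 21613 carried 1 symbol, 638 several and 3707 none in the platform annotation, and a gene table on GRCm38.p6 changed 0 symbols, with 61 identifiers unmatched. Each gene took its probe set with the highest mean.

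Mutant and control arrays were compared by two-sided tests in limma 3.58.1 (lmFit, then eBayes; R 4.3.3). P-values were adjusted by Benjamini-Hochberg across the 12366 genes, and probe sets in a fit of their own. The fit was tested on simulated data. The number of arrays, 5 in each group, limits precision. Members, gene lists and tests were chosen with earlier results of these data known. Values were given for called members and, per family, the 3 with the highest mean and the 3 with the largest difference; others only in part, and list genes where called. Sult2a2, Sult3a1, list genes named without a call and the motifs were chosen after values were seen. Of the members, 33 of 37 had a promoter window in the RefSeq table (GRCm38.p6), and 9 motifs were searched on both strands. Same-numbered arrays correlated between -0.183 and 0.0876 in their deviations from group means, and the labels name no shared litter, so the replicate numbers were not taken as pairs. One gene of the Gst group is not reported here. Detection calls were not used here.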

Additional observations from a re-analysis of the deposited data

Results flagged for a closer look

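Of 46 groups of 5 arrays tested, 4 held 1 array far from the other 4 by Dixon's criterion, which chance gives for about 1 group in 20. Ugt2b38 stood at 4.03 on mutant replicate 5, against 2.28 to 2.31 on the other mutants. Control replicate 4 was far from the other controls for Sult1a1, at 13.32 against 13.68 to 13.76, and for Ugt2b5, at 14.54 against 14.16 to 14.27. Gstm6 stood at 9.61 on control replicate 3, against 9.83 to 9.90. Values so tightly grouped as those of Ugt2b38 in mutants lie near the bottom of the scale.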

How the results depend on the processing

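All 13 called members kept their direction under each of the 20 alternatives that tested them, and Ugt3a1, Gstt3 and Gsto1 kept their call in all 10 fits without 1 array and under the 8 other settings chosen at the start. Each alternative refits arrays on which the 13 were called, so a kept direction is not separate evidence. Without 1 array, 3 to 17 members were called (Ugt 1 to 6, Sult 0 to 4, Gst 2 to 7) and 1391 to 3531 genes in all. Mutant 4 gave the lowest total and Ugt count when left out, and mutant 5 the highest. The lists gave 1 to 4 calls for donor supply, 0 to 2 for export, 2 to 3 for regulators and 1 to 2 for inducible targets. They gave 0 to 1 for further glutathione and leukotriene genes, for processing of conjugates and for other conjugating enzymes. With the replicate number as a block, 7 members were called (Ugt 3, Sult 0), 1 exporter, 1 regulator and 3 inducible targets, against 1836 genes in all; same-numbered arrays share only a number, and 1 control array and 1 mutant array correlated best with their own number. The Y-linked signal as a covariate left 3 Ugt and 1 Sult members and 2 donor supply genes. Donor supply had 2 calls also under quantile normalization, median subtraction, array weights and without dim genes. Median subtraction and array weights each gave 1 gene of the further glutathione and leukotriene list. Array weights and the filter on dim genes each gave 1 other conjugating enzyme, that filter 2 inducible targets, and averaged probe sets 1 regulator. Chosen after seeing the data, the fit of the 6 arrays with Y-linked signal called 4 members (Ugt 2, Sult 1, Gst 1), 2 donor supply genes, 0 exporters, 1 regulator and 1613 genes, and that of the other 4 arrays called 0 in each of these sets and 0 inducible targets by limma, with 751 genes at an unadjusted p under 0.05; fewer arrays enter both. Differences that were not called changed sign for Gstm1 (-0.0609 to 0.14 without 1 array, -0.14 with Y-linked signal only), Gstp1 (-0.30 to 0.0005, and 0.0278 without Y-linked signal), Sult2a2 (-0.67 to 1.28, -0.0368 with array weights and -0.26 without Y-linked signal) and Sult3a1 (-1.87 to 0.82). The cause of these changes was not tested. Without dim genes Ugt2b38, Ugt8a, Sult1c2, Sult3a1, Sult5a1 and Gstcd were not tested. Signal near the bottom of the scale limits Ugt2b38 and Ugt8a.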
